A study of Homo sapiens with 4 samples.

Results

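The proteasome genes described here are the 47 coding genes whose symbol is PSMA, PSMB, PSMC, PSMD, PSME or PSMG followed by a number, of 20052 coding genes in the RefSeq table of GRCh38.p14. They comprise 19 genes of the core particle (8 PSMA and 11 PSMB), 20 of the regulatory particle (6 PSMC and 14 PSMD), 4 activators (PSME) and 4 assembly chaperones of the core (PSMG). The symbol decides membership, and no peak value enters that rule. The m6A peaks listed on their transcripts numbered 54 of 23623 in the library named Ctrl and 64 of 23134 in the library named Cas.

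The cells were HEK293T, an established human embryonic kidney line, given the construct dCas13b-M14 and a guide RNA by polyethylenimine transfection and harvested 24 h later. The labels state this same treatment for Ctrl and for Cas, and the sources used here do not say in what way Ctrl differed. Polyadenylated RNA, broken into fragments of 100 to 300 nt, was pulled down with an antibody against N6-methyladenosine (m6A), a methyl mark on mRNA, and each group had 1 such library and 1 input library. A peak is a stretch of a transcript that the authors listed as enriched, given only by its first and last position, so depth is unknown, no p-value could be computed, and each difference between Ctrl and Cas is one between 2 libraries. A gene without a listed peak may be unmethylated, weakly methylated or not expressed, which cannot be told apart from these lists.

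The proteasome degrades proteins that carry ubiquitin chains. Its core particle is a barrel of stacked rings: outer rings of alpha subunits form the gate, and inner rings of beta subunits hold the proteolytic sites. The regulatory particle caps the barrel. Its base contains a ring of ATPases that unfolds substrates, and its lid removes the ubiquitin. Other caps, the PSME activators, open the gate without ubiquitin, and dedicated chaperones build the parts in order. The m6A methyltransferase acts in the sequence context called DRACH, of which GGACT is a frequent form, and many m6A sites of mRNA lie near the stop codon or in long internal exons.

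The following windows of 25 bases show the DRACH match nearest to the centre of a peak that both libraries listed, for the 12 members with most peak bases among the 24 in which such a match could be placed. They are shown to give the sequence context of peaks that stand in both lists. Capitals mark the 5 bases of the match, with GGACT taken in preference to other forms, and each window is given 5′ to 3′ on the transcript strand, from GENCODE release 29 on GRCh38.
PSMD1: cagagcctaaGGACCagactttgaa
PSMD10: caggacagcaGAACTgcattgcact
PSMD8: ccaggtagggGGACTgttctagcca
PSMD11: ttacctcttaGAACTcaagtggatg
PSMB1: cgctgtccttGGACAgagccatgcg
PSMB4: gtcgcggtccGGACTttgggcgggg
PSMA3: aactaatggaAGACAtgaaattgtt
PSMD4: tctgcttaggGGACTgcatgggaag
PSMG3: ggggagggtgGAACAggtcccggag
PSMD7: ataggaaagaGGACAaggagaaaga
PSMB3: tggtgaccacGGACTtccagaagat
PSMD3: cgtacaacaaGGACTtggagtctgc

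GGACT stood at the match in 5 of the 12 windows (PSMD8, PSMB4, PSMD4, PSMB3 and PSMD3) and another DRACH form in the remaining 7. By the GENCODE models 8 windows lay in coding sequence and 4 in 3′ untranslated regions (PSMD8, PSMD11, PSMD4 and PSMG3), 6 lay in the last exon, and 5 had their match within 200 nt of the stop codon. On GRCh38 the PSMD1 window was chr2:231077038-231077062 on the plus strand, in coding exon 9 of 25. The PSMB3 window was chr17:38753247-38753271 on the plus strand, in exon 2 of 6, and the PSMD3 window was chr17:39997352-39997376 on the plus strand, in exon 11 of 12. In these 3 transcripts the model and the RefSeq gene began within 10 nt of each other. Positions in the lists were therefore read on the model directly, taking the RefSeq gene's start as the listed transcript's. For the other 9 windows the ends differed by up to 76 nt, and the match was required to fall inside both peaks with and without that difference. Among these, PSMB4 lay at chr1:151399605-151399629 (plus strand, exon 1 of 7, coding), PSMD4 at chr1:151267368-151267392 (plus strand, exon 10 of 10, 3′ untranslated region) and PSMD8 at chr19:38383685-38383709 (plus strand, exon 7 of 7, 3′ untranslated region). PSMB1 lay at chr6:170535344-170535368 on the minus strand, in exon 6 of 6, and PSMG3 at chr7:1567486-1567510 on the minus strand, in exon 2 of 2. The PSMD10 window crossed an exon junction. A match is a description of the letters under a peak and shows no methylated base.

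At least 1 listed peak was found on 39 of the 47 members (83.0%, Wilson 95% interval 69.9 to 91.1, counting error only), against 52.5% of all coding genes. In Ctrl 35 members had a peak, where the background was 50.1%, and in Cas 37 had one, where it was 47.8%. The background includes genes that these cells may not express, and expression was not measured in the lists. Of the 39 members, 33 had a peak in both libraries, 2 in Ctrl alone (PSMD5 and PSMD6) and 4 in Cas alone (PSMB10, PSMD9, PSMD14 and PSME1). Over the 10522 coding genes with a peak these shares were 86.5% in both, 8.93% in Ctrl alone and 4.55% in Cas alone. The plot of peaks per gene shows every member.

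**Figure D1:**
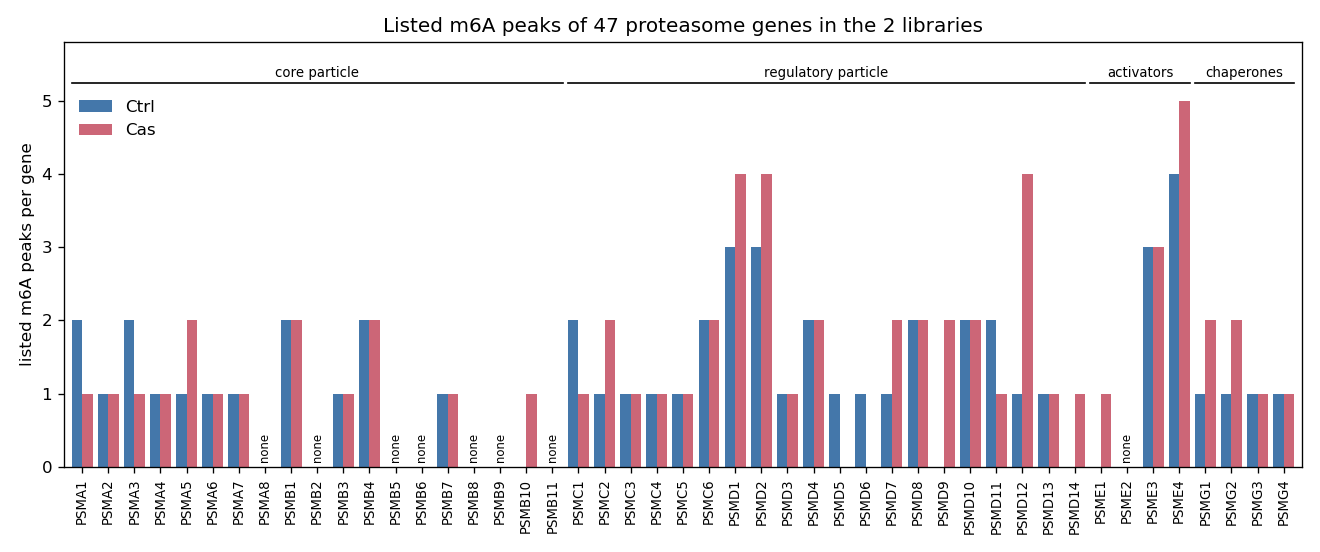
Number of listed m6A peaks (vertical axis) for each of the 47 proteasome genes (horizontal axis), with Ctrl in blue, Cas in red and "none" where neither library listed a peak; each bar is 1 library. All 20 PSMC and PSMD genes have a bar, 7 of 19 core genes have none, and the tallest bars belong to PSME4.

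The PSMC and PSMD genes of the regulatory particle were covered more fully than the core genes. All 20 PSMC and PSMD genes had a peak in at least 1 library (100%, Wilson interval 83.9 to 100), and 16 had one in both. ADRM1 and SEM1, which are also subunits of this particle but fall outside the symbol rule, had no listed peak in either library; they are named because their values were seen to differ from these. Of the 19 core genes 12 did (63.2%, interval 41.0 to 80.9), and 11 had one in both. The 12 core genes carried 15 peaks in Ctrl and 15 in Cas, covering 2254 and 2400 bases. The 20 regulatory genes carried 28 and 34 peaks, covering 4920 and 5988 bases. Transcripts of the regulatory particle are longer: the median longest coding transcript was 2074.5 nt, against 1218 nt in the core and 2995 nt over all coding genes. Per 1 kb of transcript, the order was the other way when only genes with a peak were counted. Peaks of the 12 core genes with a peak, divided by the summed length of their longest coding transcripts, gave 0.789 in both libraries. The same ratio for regulatory genes was 0.563 (Ctrl) and 0.684 (Cas). It leaves out the 7 core genes without a peak and no regulatory gene. The whole particles are therefore not compared by it. From 2996 to 4804 nt the core ratio was the lower, at 0.246 (Ctrl) and 0.369 (Cas) against 0.496 and 0.610. Up to 1879 nt it was the higher, at 1.20 and 1.10 against 0.888 in both libraries. With only the wider 50% of each list, 3 core genes (15.8%) and 10 regulatory genes (50%) had a peak. No test between the particles was made, because the genes of a class are not replicates.

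Transcript length moved with the presence of a peak, so the classes were also compared within 4 length classes of all coding genes. Among all coding genes the share with a peak was 29.2% in the shortest class (up to 1879 nt), 52.1% and 65.3% in the next classes and 73.2% in the longest. In the shortest class 10 of 15 core genes and 8 of 8 regulatory genes had a peak. In the next class these counts were 0 of 1 and 5 of 5, and from 2996 to 4804 nt they were 2 of 3 and 7 of 7. The core genes without a peak were not the shorter ones, with a median longest transcript of 1351 nt against 1012.5 nt in core genes with one. Without the tissue-restricted and inducible subunits and the assembly chaperones, 11 of 14 core genes (78.6%) and 17 of 17 PSMC and PSMD genes had a peak. ADRM1 and SEM1, which had none, are not counted here. For comparison with other large complexes, 55 of 86 genes of cytosolic ribosomal proteins (64.0%) and 65 of 77 of mitochondrial ribosomal proteins (84.4%) had a listed peak.

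All 7 constitutive alpha subunits, which form the outer rings, had a peak in both libraries. The peak of PSMA4, whose tail is central to closing the gate, was listed at positions 797 to 944 of its transcript in both libraries, and that of PSMA6 at 963 to 1101 in both, with no difference at either edge. PSMA2 was listed at 558 to 728 in Ctrl and 558 to 729 in Cas, and PSMA7 at 731 to 880 and 725 to 880. These 4 subunits therefore had the same single peak in each list, to within 6 nt. PSMA1 had peaks at 403 to 510 and 1041 to 1260 in Ctrl, and only the second was listed in Cas, at 1061 to 1270. PSMA3 likewise had a peak at 107 to 210 in Ctrl alone and one at 641 to 836 that Cas listed at 627 to 835. PSMA5 went the other way, with a peak at 61 to 190 in Ctrl and 101 to 200 in Cas, and another at 671 to 823 in Cas alone. PSMA8, the testis form of an alpha subunit (chromosome 18, 26133869 to 26193355), had no listed peak.

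The beta subunits were the least covered class, with a peak on 5 of 11 genes. Of the 4 structural subunits, which have no active site, 3 had peaks and PSMB2 (chromosome 1, 35599541 to 35641526) had none. PSMB1 had peaks at 35 to 193 and 612 to 763 in Ctrl and at 38 to 184 and 613 to 763 in Cas. PSMB4 had peaks at 18 to 171 and 711 to 824 in Ctrl and at 10 to 170 and 691 to 824 in Cas, the earlier of which holds the GGACT printed above. PSMB3 had 1 peak, at 61 to 230 in Ctrl and 55 to 260 in Cas. All the peaks of these 3 genes were thus listed in both libraries, and each gene had one close to its 5′ end.

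Of the 3 catalytic beta subunits of the standard core, only PSMB7, which cuts after basic residues, had a listed peak. It ran from 842 to 980 in Ctrl and from 806 to 980 in Cas, and 980 nt is also the length of the matching GENCODE transcript. PSMB5, the chymotrypsin-like subunit (chromosome 14, 23025851 to 23035220), and PSMB6, the caspase-like subunit (chromosome 17, 4796164 to 4798495), had none in either library. The catalytic subunits of the immunoproteasome, the form induced by interferon in immune responses, were also sparse: PSMB8 and PSMB9, the counterparts of PSMB5 and PSMB6, had none, and PSMB10, the counterpart of PSMB7, had 1 peak in Cas alone, at 840 to 978. PSMB11, the thymus form (chromosome 14, 23042212 to 23044060), had none.

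The 6 ATPases of the base, PSMC1 to PSMC6, all had a peak in both libraries, with 8 peaks in each list. PSMC3 was listed at 280 to 437 in both libraries. PSMC4 was listed at 235 to 390 in Ctrl and 246 to 391 in Cas, and PSMC2 at 165 to 320 and 165 to 335. PSMC1 was listed at 190 to 436 and 193 to 437. In these 4 ATPases the shared peak lay in the first 437 nt of the listed transcript. PSMC5 had its peak further along, at 1271 to 1442 in Ctrl and 1271 to 1435 in Cas. PSMC6 had peaks at 19 to 218 and 1816 to 1975 in Ctrl and at 25 to 218 and 1816 to 1984 in Cas. A peak of PSMC1 at 1371 to 1470 was listed in Ctrl alone, and one of PSMC2 at 1041 to 1194 in Cas alone.

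The other base subunits named PSMD are PSMD1 and PSMD2, large scaffolds with docking sites for ubiquitin receptors and substrate carriers, and PSMD4, a ubiquitin receptor. PSMD1 had peaks at 461 to 684, 1061 to 1160 and 2624 to 2843 in Ctrl. Cas listed the same places at 472 to 684, 1031 to 1230 and 2624 to 2806, and a further peak at 3101 to 3253. PSMD2 showed the same count, with 3 peaks in Ctrl (701 to 828, 1972 to 2175 and 2841 to 2984) and 4 in Cas (255 to 400, 591 to 828, 1972 to 2170 and 2846 to 2985). Peaks covered 544 bases of PSMD1 in Ctrl and 749 in Cas, and 476 and 723 bases of PSMD2. PSMD4 had the same pair of peaks in both, the earlier at 91 to 200 in Ctrl and 101 to 210 in Cas, the later at 1144 to 1286 and 1143 to 1286.

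The lid contains 8 subunits named PSMD, and 6 of them had a peak in both libraries. PSMD3, a scaffold subunit, had 1 peak at 1576 to 1747 in Ctrl and 1581 to 1752 in Cas. PSMD13 had 1 peak at 1486 to 1637 and 1486 to 1638. PSMD8 had peaks at 891 to 1132 and 1337 to 1478 in Ctrl and at 841 to 1133 and 1337 to 1478 in Cas. These 3 subunits had equal numbers in both lists, and the second peak of PSMD8 had the same edges in both lists. PSMD7, the partner of the lid's deubiquitinase, had 1 peak at 955 to 1096 in both and another at 533 to 732 in Cas alone. PSMD11, which helps hold the lid on the core, had 2 peaks in Ctrl (1067 to 1237 and 1771 to 2069) and 1 in Cas (1771 to 1960). PSMD12 had the largest difference in peak number of any member found in both libraries, with 1 peak in Ctrl (1626 to 1820) and 4 in Cas (31 to 187, 1331 to 1460, 1626 to 1812 and 4545 to 4660). Its covered bases were 195 in Ctrl and 590 in Cas.

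The other 2 of these lid subunits had a peak in 1 library. PSMD14, the deubiquitinase that strips ubiquitin from substrates before they enter the core (chromosome 2, 161308425 to 161411717), had 1 peak in Cas alone, at 1121 to 1342. PSMD6 had 1 peak in Ctrl alone, at 861 to 1020. Exons of antisense genes overlap those of both, AC009299.3 for PSMD14 and PSMD6-AS1 and PSMD6-AS2 for PSMD6. The library kit keeps the strand per the labels, but the sources used here do not say whether peak calling used it.

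The chaperones that assemble the base differed from one another. PSMD10, also known as gankyrin, had 2 peaks in each library, at 104 to 341 and 591 to 795 in Ctrl and at 110 to 340 and 571 to 795 in Cas. PSMD5 had 1 peak in Ctrl alone, at 1501 to 1680. PSMD9 had 2 peaks in Cas alone, at 302 to 451 and 931 to 1080. Only PSMD10 of the 3 was thus listed in both libraries.

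Of the activators, PSME3 and PSME4 carried several peaks and PSME1 and PSME2 few or none. PSME4, a very large nuclear cap, had 4 peaks in Ctrl (1623 to 1870, 3831 to 3967, 5451 to 5610 and 5975 to 6224) and 5 in Cas (1624 to 1866, 2783 to 2990, 3761 to 3970, 4441 to 4600 and 5956 to 6226), the highest numbers among the members. Its longest coding transcript, 7099 nt, is also the only one in the longest class. PSME3, a nuclear cap, had 3 peaks in each library, at 759 to 907, 1462 to 1666 and 2976 to 3216 in Ctrl and at 760 to 907, 1462 to 1664 and 3012 to 3222 in Cas. PSME1 and PSME2 together form the cap induced by interferon. PSME1 had 1 peak, at 227 to 437 in Cas alone, and PSME2 (chromosome 14, 24143365 to 24146610) had none.

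All 4 PSMG genes, whose products work in pairs to build the alpha ring, had a peak in both libraries. PSMG3 was listed at 1093 to 1335 in Ctrl and 1095 to 1336 in Cas, and its partner PSMG4 at 521 to 620 and 491 to 630. PSMG1 was listed at 101 to 250 and 96 to 237, with a further peak at 1161 to 1294 in Cas. Its partner PSMG2 was listed at 951 to 1050 and 911 to 1010, with a further peak at 608 to 707 in Cas. The first pair to be named thus had equal numbers in both lists, and both members of the other pair had 1 more in Cas.

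Among the 33 members with a peak in both libraries, 20 had equal numbers, 9 had a larger number in Cas and 4 a larger number in Ctrl. The share with more in Cas was 27.3%, beside 24.6% over the 9103 coding genes found in both, and the share with more in Ctrl was 12.1%, beside 20%. The 9 were PSMA5, PSMC2, PSMD1, PSMD2, PSMD7, PSMD12, PSME4, PSMG1 and PSMG2, and the 4 were PSMA1, PSMA3, PSMC1 and PSMD11. Members usually had a single peak: 21 of 35 in Ctrl (60.0%) and 20 of 37 in Cas (54.1%), where the shares over coding genes with a peak were 37.7% and 36.2%. Within length classes the order was not uniform. In the shortest class, which holds 27 of the 47 members, single peaks were less common in members (63.2% and 65.0%) than in coding genes (80.5% and 78.8%), and from 2996 to 4804 nt they were more common (54.5% and 40.0% against 30.8% and 29.1%). Their peaks had a median width of 158.5 nt in Ctrl and 160.5 nt in Cas and ranged from 100 to 299 nt. Over all coding genes the medians were 195 and 189 nt. Width moved with length too: in the shortest class the medians were 155 and 158 nt in members and 171 and 170 nt in coding genes. Peaks of mitochondrial ribosomal protein genes had medians of 158 and 167 nt, and those of cytosolic ones 140 and 142.5 nt.

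Of the 54 member peaks in Ctrl, 47 overlapped a Cas peak by at least 1 base on the same transcript (87.0%, interval 75.6 to 93.6), and over all coding genes 76.4% did. Of the 64 in Cas, 47 overlapped a Ctrl peak (73.4%, interval 61.5 to 82.7), beside 78.0%. Both background values lie inside these intervals, and 7 member peaks in Ctrl and 17 in Cas had no counterpart. Core peaks were shared at 13 of 15 in each library. Regulatory peaks were shared at 24 of 28 in Ctrl (85.7%) and 24 of 34 in Cas (70.6%). The map of peaks along the transcripts shows the peaks without a counterpart in a paler shade.

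**Figure D2:**
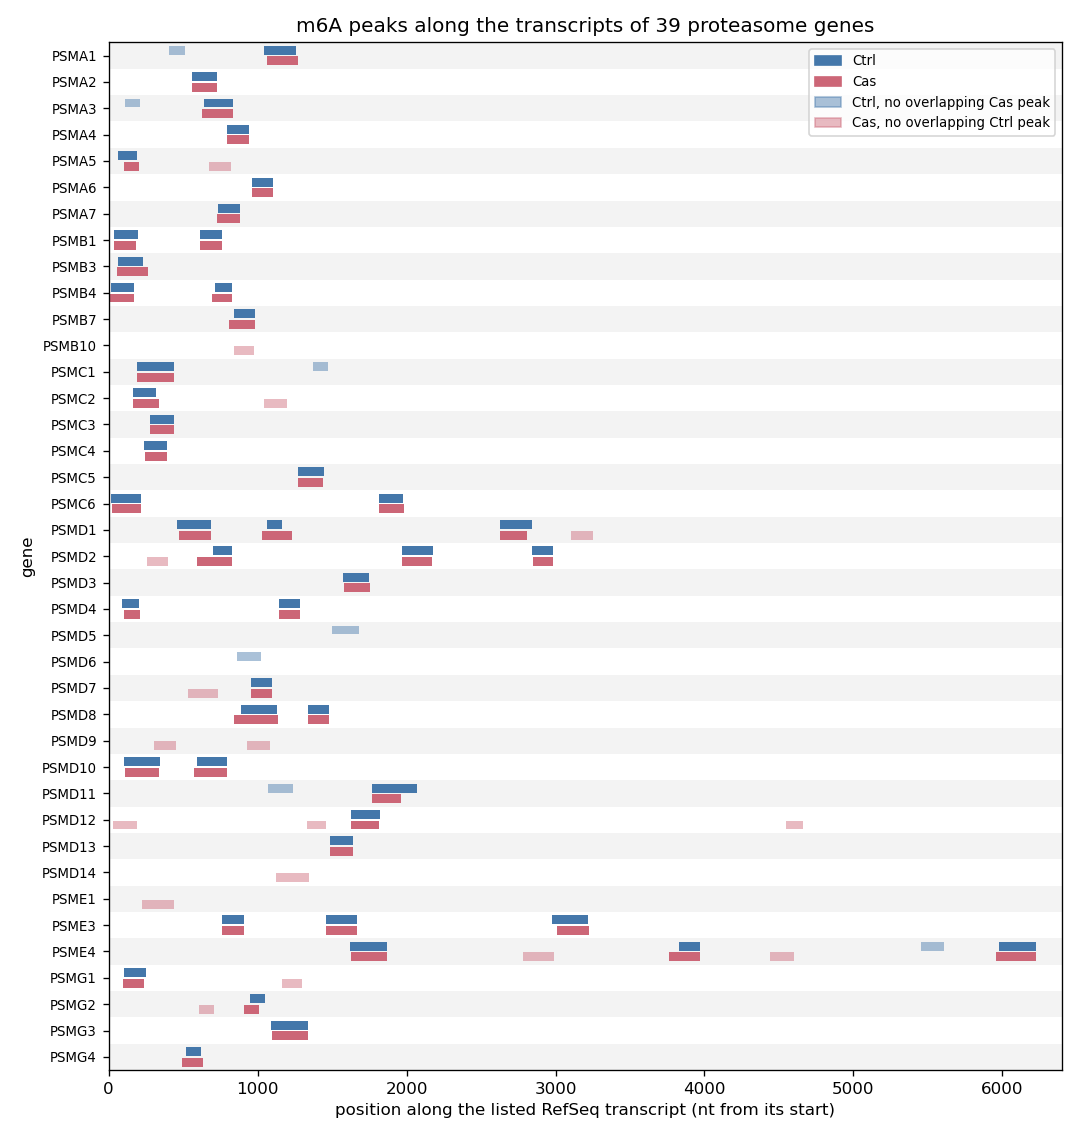
Position of each listed peak along its RefSeq transcript in nt from the start (horizontal axis) for the 39 proteasome genes with a peak (vertical axis); Ctrl is drawn above in blue, Cas below in red, and peaks that overlap none of the other library are paler. The solid bars, 47 in each library, stack nearly edge to edge, and the paler bars number 7 in Ctrl and 17 in Cas.

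Where both libraries listed a peak, the edges were close together. Both edges lay within 10 nt of each other in 26 of the 47 pairs (55.3%), against 3093 of 17081 pairs over all coding genes (18.1%). The edges were identical in 5 pairs (PSMA4, PSMA6, PSMC3, PSMD7 and the second of PSMD8), which is 10.6%, against 2.11%. The median difference was 5 nt at the start and 1 nt at the end, against 21 nt at each over all coding genes. Length again moved with this measure: in the shortest length class the share within 10 nt was 14 of 23 member pairs (60.9%), against 31.0% of coding pairs. Core pairs met the limit in 7 of 13 and regulatory pairs in 15 of 24. The share was higher still in cytosolic ribosomal protein genes, at 30 of 40 pairs (75.0%), and lower in mitochondrial ones, at 24 of 62 (38.7%). The widest differences among members were at the start of the earlier shared PSMD2 peak, 110 nt, and at the end of the shared PSMD11 peak, 109 nt.

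Many listed edges fell on a grid of 10 bases, so that a peak with both edges on it was placed more coarsely. Of the member peaks without a counterpart, 4 of 7 in Ctrl and 3 of 17 in Cas were of this kind. Over all coding genes 50.5% and 49.8% of unshared peaks were. With peaks on the grid left out, 36 of 41 member peaks in Ctrl (87.8%) and 36 of 53 in Cas (67.9%) overlapped one of the other library. Without such peaks PSMD5, PSMD6 and PSMG4 lost their only listings, and 36 members had a peak. In the 19 pairs with no edge on the grid, 16 had both edges within 10 nt (84.2%), against 31.0% of such coding pairs.

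Several members had a peak at the very start of the transcript. A peak began in the first 100 nt in 8 of the 39 members with a peak (20.5%), against 6.92% of coding genes with a peak: PSMA5, PSMB1, PSMB3, PSMB4, PSMC6, PSMD4, PSMD12 and PSMG1. In peaks this was 6 of 54 in Ctrl (11.1%, interval 5.19 to 22.2; 2.65% over coding genes) and 6 of 64 in Cas (9.38%, interval 4.37 to 19.0; 2.19%). The core supplied 4 of these genes of its 12 with a peak, and the regulatory particle 3 of 20. Shorter transcripts have more such peaks in general. In the shortest class the member share in Ctrl was 4 of 26 peaks (15.4%, interval 6.15 to 33.5), against 6.51% over coding genes. In Cas it was 3 of 27 (11.1%, interval 3.85 to 28.1), against 5.35%. Both coding shares of this class lie inside these intervals. In cytosolic ribosomal protein genes, which are also short, none of 49 and none of 52 peaks began there. Antibodies against m6A also bind m6Am, a related mark beside the mRNA cap, and these marks cannot be told apart at the start of a transcript.

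Placing peaks by region needs a transcript model with the same ends, and the RefSeq gene's start was taken as the listed transcript's. Only 5 of the 39 listed member transcripts had a model that began within 10 nt of that start (PSMB3, PSMB7, PSMD1, PSMD3 and PSME1). On these, 2 of 6 peak centres in Ctrl and 3 of 8 in Cas lay within 200 nt of the stop codon, where 24.5% and 23.8% did over coding genes. The 3 were those of PSMB7 and PSMD3 in both libraries and the Cas-only peak of PSMD1, whose centre lay 155 nt past the stop codon. Within 100 nt of the stop codon, 1 of 6 and 1 of 8 remained, that of PSMB7. With all 30 usable models, many of which begin elsewhere than the RefSeq gene, the counts were 16 of 40 in Ctrl (40.0%, interval 26.3 to 55.4) and 17 of 49 in Cas (34.7%), against 23.0% and 22.0%. In the shortest length class the member shares, 52.2% and 48.0%, stood near those of coding genes, 49.4% and 47.6%. The other centres lay mostly in coding sequence, with 20 of the 40 in Ctrl and 25 of the 49 in Cas (over coding genes 9036 of 18055 and 9278 of 17769). In the shortest class the member shares there were 43.5% (interval 25.6 to 63.2) and 44.0% (interval 26.7 to 62.9). Over coding genes of that class they were 32.9% and 35.5%. In the 3′ untranslated region beyond the window lay 3 and 4 (7.5% and 8.16%, against 22.8% and 22.2%), and in the 5′ untranslated region 1 and 3 (2.5% and 6.12%, against 4.18% and 3.64%).

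DRACH (searched on the transcript strand only, as every 5-base form with A, G or T, then A or G, then AC, then A, C or T) was found in 39 of 40 member peaks with a model in Ctrl and 48 of 49 in Cas, against 97.3% and 97.1% over coding genes. GGACT, one of its forms, was found in 10 of 40 (25.0%) and 10 of 49 (20.4%), against 27.5% and 25.7%. Near the background as they are, these shares describe the windows and show nothing particular to the members. On matched models, the PSMD3 peak held 2 copies of GGACT in each library and the PSMB3 peak held 1. For the other transcripts the letters may be read at shifted positions, so these counts place no copy under a given peak. If the RefSeq gene's start is the transcript's, the shift exceeds the width of a peak in several members. PSMB10, PSMC2, PSMC5, PSMD2, PSMD6, PSMD14, PSMG1 and PSMG2 are among them.

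Beyond the symbol rule, 23 other genes of the pathway were counted, and 19 had a listed peak, 18 of them in both libraries. Of 7 further subunits and assembly factors 5 had a peak, with ADRM1, a ubiquitin receptor of the base, and SEM1, a small lid subunit, as those without, of 12 genes that handle ubiquitin at the proteasome 10 did, and of 4 that control the subunits' transcription all did. POMP, a chaperone of core assembly, was listed in Ctrl alone with 1 peak covering 140 bases. UBQLN1, a carrier that brings ubiquitinated proteins to the proteasome, had 2 peaks in Ctrl and 4 in Cas. These 23 genes had longer transcripts than the members, with a median longest coding transcript of 4230 nt against 1591 nt, and in the length class around that median, 2996 to 4804 nt, 65.3% of coding genes had a peak.

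For 12 members, pseudogenes named after them stand in the annotation, 32 in all, of which 13 belong to PSMC1, 4 to PSMA6 and 3 each to PSMA2 and PSMD10. The sources used here do not say how reads from such copies were assigned, so the peaks of these members are less certain. Exons of other genes overlap those of many members. Among members listed in 1 library these are, beside PSMD14 and PSMD6, PSMB10 (AC040162.1, same strand), PSMD9 (WDR66 and AC069503.2, same strand) and PSME1 (EMC9, opposite strand). Among those listed in both, same-strand overlaps touch PSMA1, PSMA2 and PSMA6, and opposite-strand overlaps touch PSMA2, PSMC1, PSMC5, PSMD1, PSMD7, PSMD11, PSMD13, PSME3, PSME4, PSMG2, PSMG3 and PSMG4.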

How the data were processed

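MeRIP-seq of HEK293T cells gave 1 immunoprecipitation library for Ctrl and 1 for Cas, and the inputs entered no comparison here. As the authors deposited them, the lists hold positions only: the RefSeq transcript of each peak, its ends counted from 1, a further position between them and a strand that is always plus, with no score, count or p-value. Tools named in the submitters' processing notes, with no roles, are HISAT2, HOMER, edgeR, SAMtools, fastp and FastQC, and the build is GRCh38. The sources used here do not say which program called peaks, at what threshold, how the input was used, or from which release the transcripts came.

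Transcripts were matched to gene symbols through the RefSeq table of GRCh38.p14. Of 11254 transcripts, 59 with 198 peaks matched none. GENCODE release 29 gave lengths for 18554 coding genes, including all 47 members, and partners for 10015 transcripts, of which 8551 held every peak and 1654 also began within 10 nt of the RefSeq gene. Regions were assigned by the peak's centre. Overlap meant at least 1 base on the same transcript. Paired peaks were each other's best overlap. Wilson 95% intervals cover counting error only. No test was made, since each group had 1 library. The work used python 3.11.15, pandas 2.3.3 and scipy 1.17.1, and only the overlap step was tested on data simulated from the Ctrl list.

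The symbol rule uses no measured value, but it, the lists and the other rules were chosen with earlier results of these data known. Every member is named. Pathway genes are named where 1 library alone lists them or peak numbers differ by 2 or more. Sequences were taken for at most 12 members, in order of the bases covered. Alternatives covered wider peaks, peaks off the 10-base grid, overlapping peaks, length classes, other subunit lists, models and windows.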

Additional observations from a re-analysis of the deposited data

How the results depend on the processing

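No paired analysis was possible because neither group was replicated. When the narrower peaks were left out, keeping 50% of each list, 13 members in Ctrl, 16 in Cas and 12 in both had a peak, and the shares fell to 15.8% of core genes (3 of 19) and 50% of regulatory genes (10 of 20). With only peaks that overlap one of the other list, 80% of regulatory genes (16 of 20) had a peak. The only core gene of the second length class had none (0 of 1). A stop codon window of 100 nt held 12.5% of Cas peaks on matched models (1 of 8). Chosen after seeing the data, a tolerance of 20 nt put both edges together in 74.5% of pairs. Among pairs with no edge on the 10-base grid, also chosen after seeing the data, 84.2% had both edges within 10 nt. Each of these settings counts fewer peaks, genes or positions, except the wider tolerance, which counts more. The other values, 40 from alternatives listed at the outset and 8 from added ones, moved by less than 1.5 times or stayed inside the interval. The regulatory share was above the core share under each alternative run for the particles. None of these added ADRM1 and SEM1, which had no peak, to the regulatory particle. Depth is unknown, so no limit of detection can be given for the 8 members without a peak, and no replicate shows how far 2 libraries of the same group differ.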
